A study of Arabidopsis thaliana with 17 samples.

Results

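UDP-dependent glycosyltransferases of the UGT family were examined on arrays of shoots and roots of Arabidopsis plants with and without a deletion in NBR1, which encodes a selective autophagy receptor. The members were the probe sets that carry 1 gene symbol starting with UGT and a digit in the platform's probe-gene table (56 probe sets), together with the probe set that the platform lists only as AT3G21790, the locus of UGT71B7. This gave 57 probe sets of 52 genes in 12 subfamilies, out of 28583 probe sets in the table and 18107 that carry a gene name and were tested. The UGT71 subfamily had 12 of them (11 genes) and the other subfamilies 45, of which UGT73 with 11 and UGT76 with 9 were the most numerous. The groups were WT (Col-0) and the lines KO1 and KO3, which are homozygous for NBR1 deletions made with CRISPR/Cas9 and from which the transgenes had been crossed out. All plants were 4 weeks old and were grown hydroponically in short days without treatment, and each RNA sample was drawn from at least 3 plants. Shoots and roots were measured separately on 17 arrays, with 3 arrays per line and organ except for WT roots, which had 2 (replicates 1 and 3).

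UGTs transfer a sugar, most often glucose, from a UDP-sugar to a small molecule, which changes its solubility, transport, storage and activity. Members of the family conjugate hormones such as abscisic acid (ABA), auxin, cytokinins, brassinosteroids and salicylate, and specialised metabolites such as flavonols, anthocyanins, lignin precursors and glucosinolates. UGT71B6, UGT71B7, UGT71B8 and UGT71C5 can turn ABA into its inactive glucose ester, which is stored and can be hydrolysed back to ABA. Many UGT genes lie side by side in the genome as runs of close relatives. Of the 52 genes measured here, 29 lay in 12 runs of immediate neighbours, the longest with 4 genes (UGT85A7, UGT85A2, UGT85A5 and UGT85A3 on chromosome 1).

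The values are RMA log2 signals, in which a difference of 1 is a doubling of signal. The arrays matched their organ labels. Of 16 green-tissue genes listed, 2 were found by name, the light-harvesting genes LHCB4.1 and LHCB4.2. Their group means were 1.36 to 3.12 in roots against 7.44 to 9.04 in shoots. Of 15 root markers listed, 6 were found, with group means of 0.92 to 1.72 in shoots against 2.33 to 6.18 in roots. After quantile normalization over the 17 arrays, 5 of these 6 were higher in roots at an adjusted p under 0.05 from limma. PLT2 did not pass (-0.32, shoots minus roots, adjusted p = 0.151 from limma). Its root means of 2.33 to 2.51 lay under the median of every root array. PHT1;1, PLT2, LRX1 and PRP3 were named only through the study's lists of genes changed in an NBR1 overexpression line. NBR1 had group means of 1.63 and 1.67 in KO1 and KO3 shoots against 6.18 in WT shoots, and of 3.55 and 4.09 in KO1 and KO3 roots against 7.32 in WT roots. The median signal of an array lay between 1.72 and 1.85 for shoots and between 2.61 and 2.67 for roots. KO1 shoots replicate 1 stood apart, with an SD of 1.41 across all probe sets where the remaining arrays of shoots had 1.94 to 2.07, and WT roots replicate 1 had the lowest mean correlation with the other root arrays (0.978). Values without these arrays are given beside the results that they move most. In a whole organ, fewer cells of a type and less RNA per cell cannot be told apart.

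Most UGT probe sets were dim. With the highest array median of the organ as a bar, 32 of the 57 were below it in all 6 groups, 12 were above it in shoots only, 7 in roots only and 6 in both organs. In WT shoots 15 of 57 (26.3%) were above the bar, against 43.5% of all probe sets tested, and in WT roots 11 of 57 (19.3%) were above it, against 45.1%. The UGT71 subfamily had 4 of 12 above the bar in every shoot group and 3 of 12 in every root group. The other subfamilies had 11 to 13 of 45 above it in the shoot groups and 8 to 10 of 45 in the root groups. Among the ABA-conjugating enzymes only UGT71B7 was above the bar, in the shoots of all lines. UGT71C5 was at 1.04 to 1.29 on the shoot arrays and 1.51 to 1.77 on the root arrays, and UGT71B8 at 1.04 to 1.8 and 0.88 to 1.51. A change of such dim probe sets would be hard to detect, so their small log2 fold changes do not show that the transcripts stayed level.

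**Figure D1:**
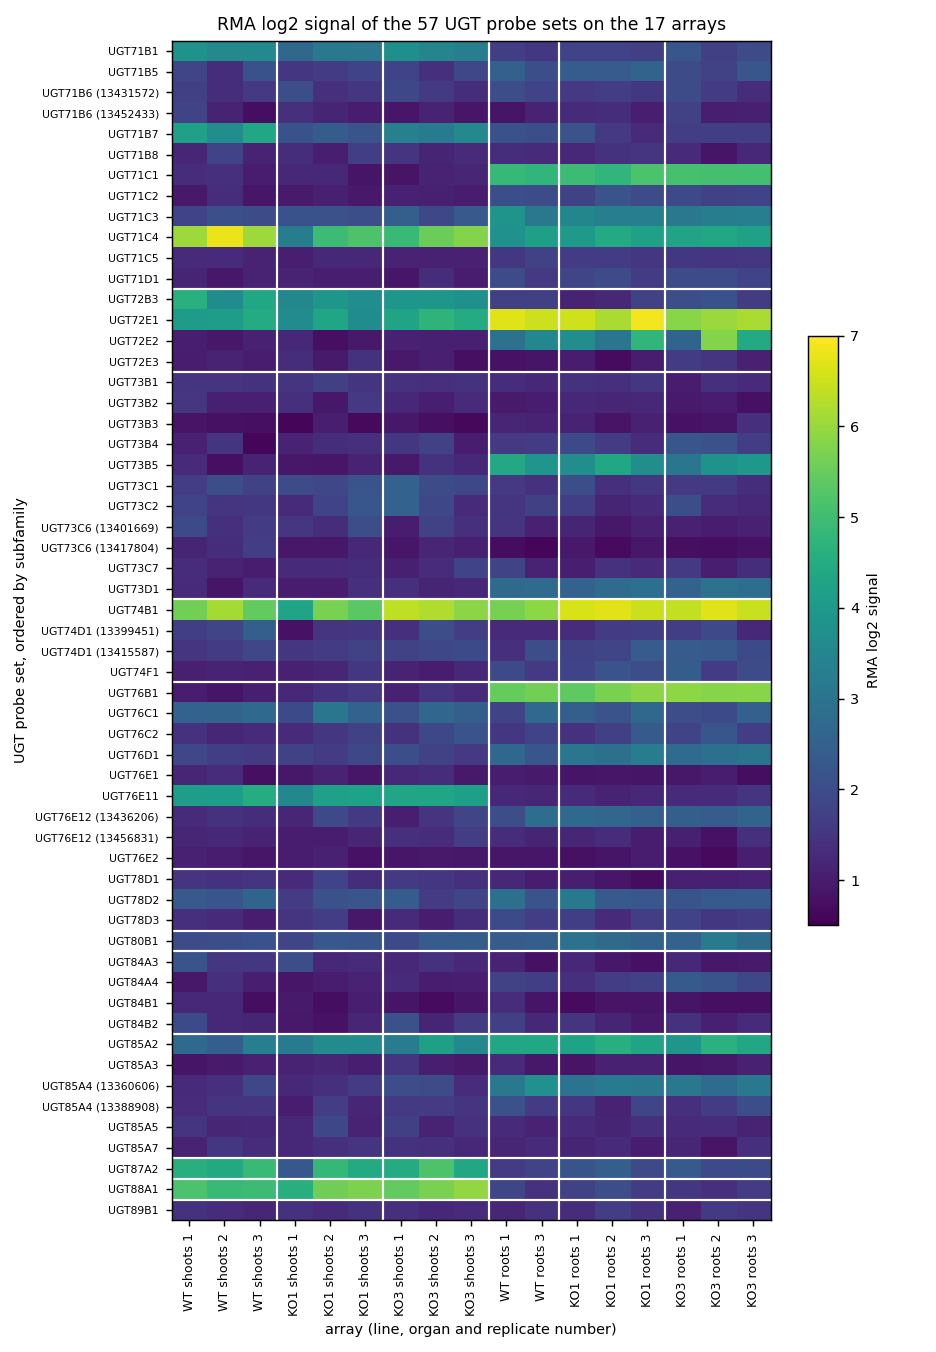
RMA log2 signal (colour, from dark at low to yellow at high signal) of the 57 UGT probe sets (vertical axis, by subfamily) on the 17 arrays (horizontal axis, by line, organ and replicate). Most probe sets were dim on all arrays. UGT71C4, UGT72E1 and UGT74B1 were bright in both organs. UGT72B3, UGT76E11, UGT87A2 and UGT88A1 were bright in shoots, as was UGT71B7 in WT and KO3 shoots. UGT71C1, UGT72E2, UGT73B5 and UGT76B1 were bright in roots.

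A pair of probe sets carries the same symbol for 5 genes, UGT71B6, UGT73C6, UGT74D1, UGT76E12 and UGT85A4. In the reference annotation each of these 5 genes overlaps a long non-coding RNA locus over 99.3% to 100% of its length, whereas 4 of the 47 genes with 1 probe set overlap such a locus at all. UGT76E11, with 1 probe set, is among these 4 and is covered in full. Which probe set of a pair reads the UGT transcript and which the overlapping locus could not be settled, so both are given with their probe set number. UGT71C4 also overlaps its neighbour UGT71C3, and UGT73B5 its neighbour UGT73B4. UGT73B1, UGT73B3, UGT74F1 and UGT76E1 each overlap another protein-coding locus. Where the probes of these genes lie was not examined, so whether their signals include an overlapping transcript is not known.

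In shoots of KO1, UGT71B7 fell, and it was the only UGT probe set of 57 with an adjusted p under 0.05 from limma here, where 56 of 18107 probe sets (0.309%) passed. UGT71B7 was added to the members by its locus, and the paper had already reported its fall in KO1 shoots. The count is therefore not an unselected one. None of the UGT probe sets chosen by symbol passed. UGT71B7 (AT3G21790, chromosome 3) had signals of 4.22, 3.69 and 4.37 in WT shoots, 2.15, 2.41 and 2.19 in KO1 shoots and 3.33, 3.17 and 3.57 in KO3 shoots. The 3 groups did not overlap, with KO1 lowest and KO3 between KO1 and WT. Against WT, KO1 shoots had a log2 fold change of -1.84 (SE, the standard error, of 0.20, adjusted p = 0.0068 from limma), or 3.59-fold, and without KO1 shoots replicate 1 it was -1.79 (adjusted p = 0.00506). In KO3 shoots it was -0.74 (SE of 0.20, adjusted p = 0.457 from limma). For single genes an exact permutation test (two-sided) cannot go below p = 0.1 with 3 arrays against 3 or against 2. The KO1 call was lost in a fit without moderation of the spread (adjusted p = 0.0894) and in a fit of only the KO1 and WT shoots (adjusted p = 0.0678).

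The study's methods give thresholds of at least 1.5-fold and p under 0.05 without saying whether that p was adjusted. They were applied here to the unadjusted p of the limma fit. By this rule 4 of 57 UGT probe sets were lower in KO1 shoots, near the share of all probe sets tested (6.10%), and 1 was higher (0.420% of all). The 4 lower ones were UGT71B7, UGT71C4, UGT71B1 and a probe set of UGT74D1, and the higher one was UGT85A2. UGT71 thus held 3 of the 4, or 3 of its 12 probe sets against 1 of 45 in the other subfamilies. As UGT71B7 was added by its locus with its fall already reported, this comparison of subfamilies is not an unselected one either. Without KO1 shoots replicate 1, UGT71B7 and UGT71C4 were lower by this rule (2 of 57, 3.51%, against 3.59% of all) and UGT85A2 and UGT88A1 higher (3.51%, against 1.54% of all).

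UGT71C4 (AT1G07250), of the same subfamily, had signals of 6.04, 6.80 and 6.06 in WT shoots, 3.23, 4.95 and 5.19 in KO1 shoots and 4.90, 5.54 and 5.80 in KO3 shoots. All arrays of both KO lines lay below all WT arrays, and KO1 replicate 1 lay well below the other KO1 arrays. The log2 fold change was -1.84 in KO1 (SE of 0.49, adjusted p = 0.236 from limma) and -0.89 in KO3 (SE of 0.49, adjusted p = 0.998 from limma). Without KO1 shoots replicate 1 the KO1 value was -1.23 (SE of 0.29, adjusted p = 0.109 from limma), and after quantile normalization of the shoot arrays it was -1.33 (adjusted p = 0.110). With all 17 arrays in 1 fit, which takes its spread from both organs, UGT71C4 passed in KO1 shoots (adjusted p = 0.0214 from limma). In roots its signal was 3.80 and 4.2 in WT and 4.00 to 4.48 in KO1 and KO3, so that the low values in the KO lines were seen in shoots, and the KO1 effect in shoots minus that in roots was -2.08 (SE of 0.59, adjusted p = 0.182 from limma).

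UGT71B1 (AT3G21750), which lies near UGT71B6, UGT71B7 and UGT71B8 on chromosome 3, had signals of 3.83, 3.55 and 3.59 in WT shoots, 2.66, 3.09 and 3.07 in KO1 shoots and 3.73, 3.46 and 3.27 in KO3 shoots. KO1 lay below both other groups, while KO3 overlapped WT. The log2 fold change was -0.72 in KO1 (SE of 0.18, adjusted p = 0.191 from limma) and -0.17 in KO3 (adjusted p = 0.998 from limma). Without KO1 shoots replicate 1 the KO1 value was -0.58 (adjusted p = 0.229 from limma) and after quantile normalization -0.45 (adjusted p = 0.329), both under 1.5-fold, while with all 17 arrays in 1 fit it passed (adjusted p = 0.0333). The immediate neighbours of UGT71B7 did not show this pattern. The log2 fold change of UGT71B8 was -0.03 in KO1 shoots and -0.08 in KO3 shoots. The probe sets of UGT71B6 were at 0.10 and -0.05 in KO1 shoots and at 0.07 and -0.26 in KO3 shoots. UGT71C5, the remaining ABA-conjugating enzyme, was at -0.08 in KO1 shoots and -0.13 in KO3 shoots. Of the 4 genes of this role, 1 passed the adjusted threshold in KO1 shoots and none did in the other comparisons with WT.

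The KO1 array that stands apart also had the lowest KO1 signals of several other shoot-bright UGTs and of light-harvesting genes. UGT87A2, which is linked to flowering time and stress responses, was at 2.29 on it and at 4.83 and 4.48 on the other KO1 shoot arrays, against 4.44 to 4.89 in WT. UGT74B1 was at 4.30, 5.70 and 5.33 on the KO1 shoot arrays, and UGT88A1 at 4.58, 5.6 and 5.73. LHCB4.1 reached down to 6.20 and LHCB4.2 to 6.66 in KO1 shoots, against 7.91 and 8.82 as the lowest WT values. The signal of UGT71B7 in KO1 shoots was 2.25 ± 0.14 (SD, n = 3), so that this array did not stand out for it. Whether the state of this array affects the lower signals of UGT71C4 and UGT71B1 was not tested beyond leaving it out.

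**Figure D2:**
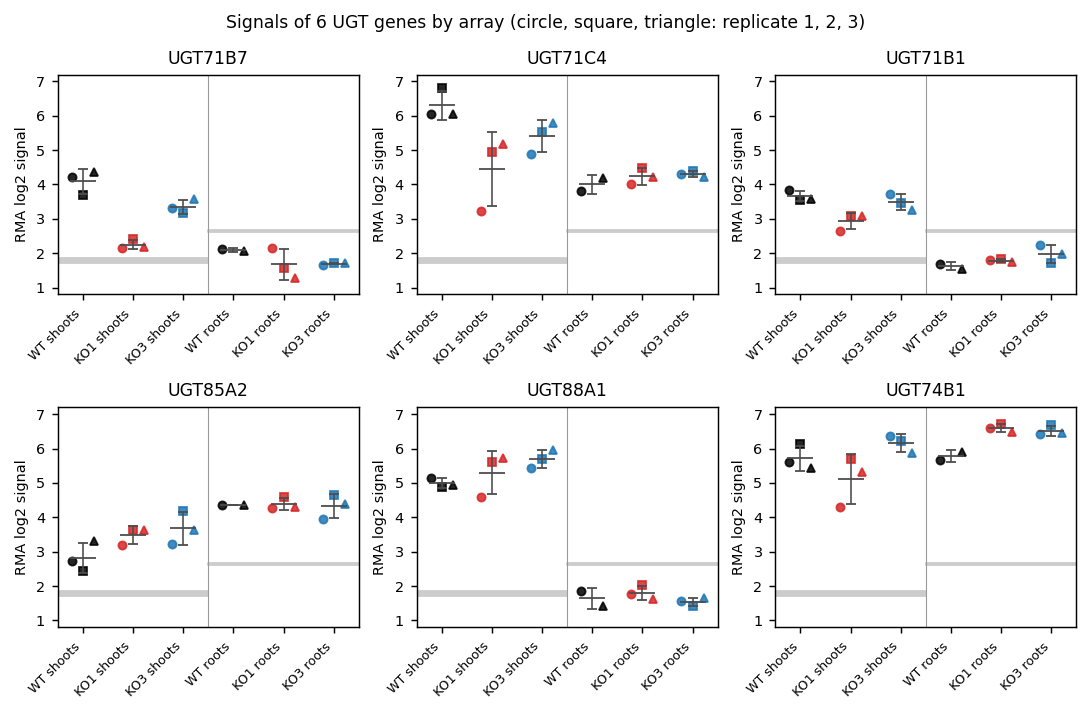
RMA log2 signal (vertical axis) of 6 UGT genes on each array of the 6 groups (horizontal axis), with WT in black, KO1 in red and KO3 in blue, and with a circle, square or triangle for replicate 1, 2 or 3. Horizontal bars are group means, error bars are SDs (n = 3, and 2 for WT roots) and the grey band is the range of array medians of the organ. UGT71B7 was lower in KO1 and KO3 shoots than on every WT shoot array, and UGT74B1 was higher in KO1 and KO3 roots than on both WT root arrays.

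In shoots of KO3 none of the 57 UGT probe sets passed an adjusted p under 0.05 from limma (0.144% of all probe sets tested passed), while 4 (7.02%) had an unadjusted p under 0.05, against 5.03% of all. By the study's thresholds 1 was lower, UGT71B7 (1.47% of all were lower), and 2 were higher, UGT85A2 and UGT88A1 (1.21% of all were higher). UGT88A1 had signals of 5.15, 4.88 and 4.95 in WT shoots and 5.44, 5.70 and 5.95 in KO3 shoots, without overlap. Its log2 fold change in KO3 shoots was 0.70 (SE of 0.29, adjusted p = 0.922 from limma). In KO1 shoots UGT88A1 was at 4.58 to 5.73 (mean 5.30), which overlapped the WT shoots at 4.88 to 5.15 (mean 4.99). Its log2 fold change there was 0.67 without replicate 1 (adjusted p = 0.159) and 1.01 after quantile normalization of the shoot arrays (adjusted p = 0.0473 from limma), the only UGT call that this scaling added. UGT85A2 had signals of 2.72, 2.45 and 3.30 in WT shoots, 3.19, 3.63 and 3.64 in KO1 shoots and 3.22, 4.19 and 3.62 in KO3 shoots, so that the lowest KO array overlapped the highest WT array in each line. Its log2 fold changes were 0.66 in KO1 and 0.85 in KO3 (SE of 0.29 for both, adjusted p = 0.500 and 0.780 from limma). The lower probe set of UGT74D1, an auxin glucosyltransferase gene, was at 1.71, 1.86 and 2.48 in WT shoots and 0.83, 1.51 and 1.54 in KO1 shoots (probe set 13399451, log2 fold change -0.72, adjusted p = 0.430 from limma, and -0.49 without KO1 shoots replicate 1), while probe set 13415587 of the same gene was at 1.47, 1.62 and 1.88 in WT shoots and 1.54, 1.66 and 1.77 in KO1 shoots.

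In roots no UGT probe set had an adjusted p under 0.05 from limma in KO1 (0.127% of all probe sets tested passed) or in KO3 (0.215% of all), and 3 (5.26%) and 5 (8.77%) had an unadjusted p under 0.05, against 8.38% and 11.2% of all. By the study's thresholds none was lower in either line (1.33% of all in KO1 and 1.84% in KO3), 2 were higher in KO1 (1.77% of all) and 1 was higher in KO3 (2.40% of all). The probe set higher in both lines was that of UGT74B1 (AT1G24100), the thiohydroximate S-glucosyltransferase that makes desulfoglucosinolates, the precursors of glucosinolates. Its root signals were 5.67 and 5.90 in WT, 6.61, 6.72 and 6.47 in KO1 and 6.41, 6.68 and 6.45 in KO3. Every KO array lay above both WT arrays. The log2 fold change was 0.82 in KO1 roots (SE of 0.15, adjusted p = 0.106 from limma) and 0.73 in KO3 roots (SE of 0.15, adjusted p = 0.0961 from limma), and without WT roots replicate 1 it was 0.70 and 0.61 (adjusted p = 0.692 and 0.664). As the same WT arrays served for both lines, these values are not independent of each other. In shoots UGT74B1 was at 0.43 in KO3 and at -0.61 in KO1, where it was -0.21 without replicate 1, and none of these values passed the test.

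Of 13 other glucosinolate genes listed, 2 were found by name. The others may be among the probe sets of the array that carry no name in the sources used here. CYP79B2, which acts in the formation of indole glucosinolates and auxin, was at 0.89 in KO1 roots (SE of 0.15, adjusted p = 0.0578 from limma), at 0.60 in KO3 roots (adjusted p = 0.164), at 0.94 in KO3 shoots (adjusted p = 0.457) and at 0.21 in KO1 shoots. SOT18, which sulphates desulfoglucosinolates, was at 0.36 in KO1 roots and 0.74 in KO3 roots (adjusted p = 0.707 and 0.254 from limma), and at -0.04 and 0.34 without WT roots replicate 1. In shoots SOT18 was at -0.14 in KO1 and 0.56 in KO3. By the study's thresholds CYP79B2 was higher in KO1 roots, KO3 roots and KO3 shoots and SOT18 in KO3 roots, and neither passed the adjusted threshold in any comparison of a KO line with WT. Both genes were named only through the study's lists of genes changed in an NBR1 overexpression line. They are therefore not an unselected look at the pathway.

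UGT76D1, whose product glucosylates dihydroxybenzoic acids derived from salicylate, was the other probe set higher in KO1 roots. Its root signals were 2.67 and 2.24 in WT, 3.06, 2.90 and 3.25 in KO1 and 2.78, 2.90 and 2.99 in KO3. All KO arrays were above both WT arrays, but the WT arrays differed by more than the KO arrays within a line. The change on the log2 scale came to 0.61 in KO1 (SE of 0.17, adjusted p = 0.296 from limma) and 0.43 in KO3 (adjusted p = 0.375 from limma), with 0.83 and 0.65 without WT roots replicate 1 but 0.40 and 0.22 without WT roots replicate 3, which ended the KO1 call by the study's thresholds. Without WT roots replicate 1, UGT85A4 (probe set 13360606) was lower by the study's thresholds in both lines, at -0.71 in KO1 and -0.79 in KO3. Its root signals were 3.10 and 3.79 in WT, 2.97 to 3.18 in KO1 and 2.78 to 3.11 in KO3, so that only WT replicate 3 lay above all KO arrays.

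Among the UGTs of monolignols and hydroxycinnamates, root replicates of UGT72E2 varied widely. UGT72E2, which acts on coniferyl and sinapyl alcohol, had root signals of 2.96 and 3.54 in WT, 3.68, 3.06 and 4.79 in KO1 and 2.59, 5.79 and 4.47 in KO3. Its SD of 1.61 in KO3 roots was the largest of any UGT group, and its log2 fold change of 1.03 there was the largest of the family in that comparison, with an adjusted p of 0.650 from limma. UGT72E1, which acts on the aldehydes, was at 6.68 and 6.5 in WT roots and 5.85, 6.01 and 6.17 in KO3 roots (log2 fold change -0.58, adjusted p = 0.327 from limma). UGT72E3 was at 0.83 and 0.87 in WT roots and 1.65, 1.49 and 1.09 in KO3 roots (log2 fold change 0.56, adjusted p = 0.299 from limma), values below the median of every root array. Of the 5 genes of this role found by name, out of 8 listed, none passed either threshold in any line or organ. PAL1, the entry enzyme of the phenylpropanoid pathway, was at 0.44 in KO1 roots and 0.38 in KO3 roots (adjusted p = 0.573 and 0.501 from limma). It was the only 1 of 14 listed genes of the pathway found by name, through the study's supplement.

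The remaining role groups showed no call in any of the 4 comparisons by the adjusted or the study's thresholds, counting a gene with a pair of probe sets by the one with the higher mean over all arrays (13415587 for UGT74D1). The flavonoid and anthocyanin UGTs (UGT78D1, UGT78D2, UGT78D3 and UGT73C6, 4 of 9 listed) ranged from -0.43 to 0.13 in log2 fold change over the 4 comparisons. UGT73C6 also acts on brassinosteroids. The cytokinin UGTs (UGT76C1, UGT76C2 and UGT73C1, 3 of 5 listed) ranged from -0.20 to 0.53, and the salicylate and defence UGTs (UGT74F1, UGT76B1 and UGT71C3, 3 of 5 listed) from -0.28 to 0.45. The auxin UGTs (UGT84B1 and UGT74D1, 2 of 4 listed) ranged from -0.30 to 0.51. The stress and redox genes UGT73B3, UGT73B4 and UGT73B5 ranged from -0.53 to 0.40. UGT76E1, of jasmonate conjugation, and UGT80B1, a sterol glucosyltransferase gene, ranged from -0.12 to 0.09 and from 0.06 to 0.41. In all, 27 of 43 UGT genes listed by role were found by symbol or, for UGT71B7, by locus.

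Among other genes of these pathways, BGLU33, whose product hydrolyses the glucose ester of ABA, was lower in KO1 shoots by the study's thresholds (-0.83, adjusted p = 0.407 from limma, and -0.48 without KO1 shoots replicate 1), and in KO3 shoots it was at 0.00. DTX50, an ABA exporter gene, was at 0.13 in KO1 shoots, 0.37 in KO3 shoots, 0.71 in KO1 roots and 0.85 in KO3 roots. These 2 genes were the ones found by name of 14 listed for ABA, and neither passed the adjusted threshold in a comparison of a KO line with WT. The 3 flavonoid pathway genes found by name of 15 listed (DFR, 5MAT and MYB75) ranged from -0.20 to 0.58 in these comparisons and none passed.

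Set against the other subfamilies, the UGT71 probe sets had a median log2 fold change that differed by -0.06 in KO1 shoots (-0.08 against -0.02), by -0.18 in KO3 shoots (-0.11 against 0.07), by 0.02 in KO1 roots (0.06 against 0.03) and by -0.11 in KO3 roots (-0.15 against -0.04). Without dim probe sets the root differences were -0.13 in KO1, a turn of direction, and -0.28 in KO3. The medians of all probe sets tested were -0.06, 0.00, 0.00 and 0.00. Computed for each KO array against the WT mean, the difference between the subfamilies was -0.15 to 0.08 in KO1 shoots, -0.20 to -0.10 in KO3 shoots, -0.03 to 0.13 in KO1 roots and -0.18 to 0.05 in KO3 roots, so that only in KO3 shoots did all 3 arrays have the same sign. These are descriptions over probe sets that share arrays and, in part, sequence, and they carry no test. In KO1 shoots 10 of the 12 UGT71 probe sets had a negative log2 fold change, against 23 of 45 in the other subfamilies and 11064 of 18107 overall. In KO3 shoots the numbers were 9 of 12, 16 of 45 and 8920 of 18107. The UGT71 values in KO1 shoots were thus mostly near 0, with UGT71B7, UGT71C4 and UGT71B1 apart from the rest.

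**Figure D3:**
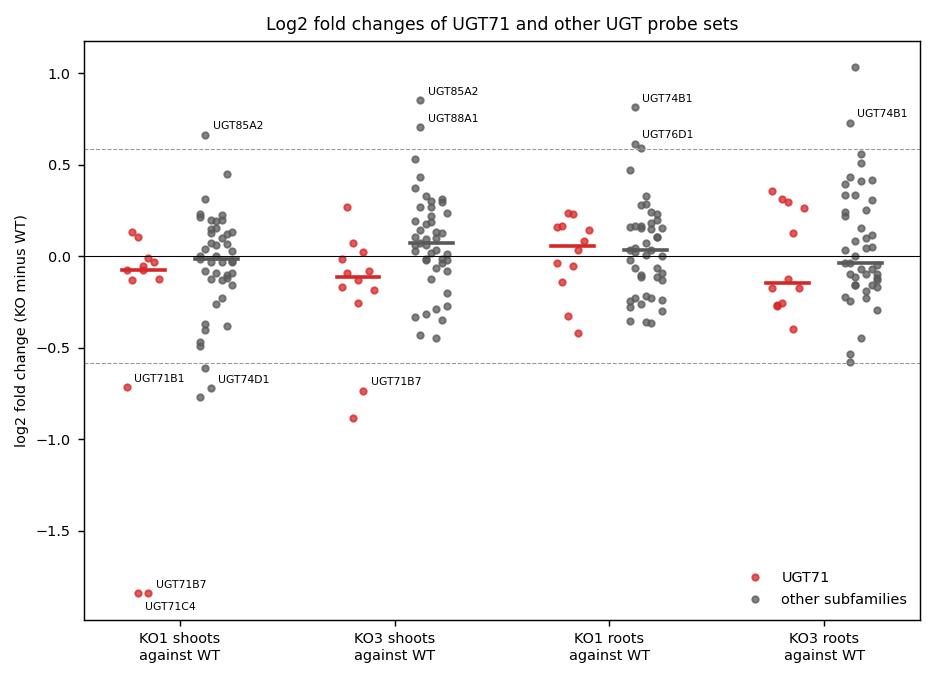
Log2 fold changes (vertical axis, KO minus WT) of the 12 UGT71 (red) and 45 other (grey) UGT probe sets in the 4 comparisons (horizontal axis); each point is a probe set, thick bars are medians, dashed lines mark 1.5-fold, and named points have an unadjusted p under 0.05 and at least 1.5-fold. In KO1 shoots UGT71B7 and UGT71C4, both at -1.84, lie apart from the other probe sets.

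When KO1 was compared directly with KO3, none of the 57 UGT probe sets reached an adjusted p under 0.05 from limma, either in shoots or in roots, where no probe set of the 18107 did either (0.00%). An unadjusted p under 0.05 was found for 6 UGT probe sets (10.5%) in each organ, against 6.69% of all probe sets in shoots and 3.29% in roots. In shoots UGT71B7 had the largest of these differences, lower in KO1 by 1.11 on the log2 scale (SE of 0.20, adjusted p = 0.648 from limma). Without KO1 shoots replicate 1 it was -1.06. UGT74B1 was at -1.05 (SE of 0.35) and UGT71C4 at -0.96, which became -0.64 and -0.34 without that array.

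Whether a line had a different effect in its shoots than in its roots was tested as well. None of the UGT probe sets passed for KO1 (0.370% of all probe sets tested passed) or for KO3 (0.0994% of all), with 7 (12.3%) and 5 (8.77%) at an unadjusted p under 0.05, against 11.0% and 6.28% of all. The UGT probe set nearest to the threshold was UGT71B7 for KO1, at -1.42 (SE of 0.31, adjusted p = 0.0700 from limma). Its root signals of 2.13 and 2.06 in WT, 2.16, 1.58 and 1.28 in KO1 and 1.67, 1.71 and 1.71 in KO3 were under the median of every root array, with log2 fold changes of -0.42 in KO1 (SE of 0.22, adjusted p = 0.636 from limma) and -0.40 in KO3 (SE of 0.22, adjusted p = 0.524 from limma).

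Between the organs the UGTs differed far more than between the lines. The shoot and root arrays differ in their medians and the sources used here do not state whether they were normalised together, so differences were computed after quantile normalization over the 17 arrays, as deposited, and after subtraction of array medians. The median of all probe sets, shoots minus roots, was 0.01, -0.32 and 0.51 under these scalings. The UGTs higher in shoots at an adjusted p under 0.05 from limma numbered 21, 12 and 41 of 57, and those higher in roots 14, 22 and 9. Of all probe sets tested, 26.2% were higher in shoots and 32.0% higher in roots after quantile normalization, 12.1% and 51.6% as deposited and 56.7% and 28.4% after subtraction of medians. A UGT was therefore taken as differing only where the sign and the call held under the 3 scalings, which was so for 12 probe sets higher in shoots (12.0% of all probe sets tested) and 7 higher in roots (24.4% of all).

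The largest difference towards roots was that of UGT76B1, which glucosylates isoleucic acid, salicylate and N-hydroxypipecolic acid and restrains defence. Its signal was 0.87 to 1.57 on the 9 shoot arrays and 5.39 to 5.90 on the 8 root arrays, a difference of -3.97 after quantile normalization (SE of 0.11, adjusted p = 2.76e-15 from limma). UGT71C1, which acts on flavonols and other phenolics in vitro, was at 0.85 to 1.41 in shoots and 4.77 to 5.15 in roots, with a difference of -3.19 (SE of 0.11, adjusted p = 5.93e-14 from limma). In neither gene did the organs overlap. The other 5 were UGT72E2 (-2.18), the redox-linked UGT73B5 (-2.13), UGT72E1 (-1.52), UGT73D1 (-1.05) and probe set 13360606 of UGT85A4 (-0.81). The monolignol UGTs UGT72E1 and UGT72E2 were thus both higher in roots, while UGT72E3 was dim in both organs and did not pass after quantile normalization (0.08, adjusted p = 0.506 from limma). UGT71C2, UGT71D1 and UGT84A4 were also higher in roots after quantile normalization (-0.66, -0.55 and -0.54), but after subtraction of medians UGT71C2 was at -0.08 and no longer passed, and UGT71D1 and UGT84A4 turned to 0.0456 and 0.065.

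The largest difference towards shoots was that of UGT88A1, with signals of 4.58 to 5.95 on the shoot arrays and 1.41 to 2.03 on the root arrays and a difference of 4.14 (SE of 0.09, adjusted p = 2.38e-16 from limma). UGT76E11, which overlaps a non-coding locus over its full length, was at 3.53 to 4.52 in shoots and 1.11 to 1.5 in roots, with a difference of 3.45 (SE of 0.08, adjusted p = 2.76e-16 from limma). UGT87A2 (3.02) and UGT72B3 (2.93) followed. The UGT71 members higher in shoots under the 3 scalings were UGT71B1 (2.31), UGT71B7 (2.11) and UGT71C4 (2.08), the same 3 that were lower in KO1 shoots by the study's thresholds. The other UGT71 probe sets had WT shoot means of at most 1.96 and so little room to fall. This match therefore does not show a link between the organ difference and the lower KO1 values. Smaller differences held for the cytokinin glucosyltransferase gene UGT73C1 (1.04), the hydroxycinnamate glucosyltransferase gene UGT84A3 (0.78), both probe sets of UGT73C6 (0.71 and 0.45) and the flavonol rhamnosyltransferase gene UGT78D1 (0.65). UGT76C1, a cytokinin N-glucosyltransferase gene, was at 1.11 after quantile normalization but at 0.22 as deposited, where it did not pass (adjusted p = 0.266 from limma). UGT71 as a subfamily had 3 probe sets higher in shoots, 1 higher in roots and 8 in neither class.

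**Figure D4:**
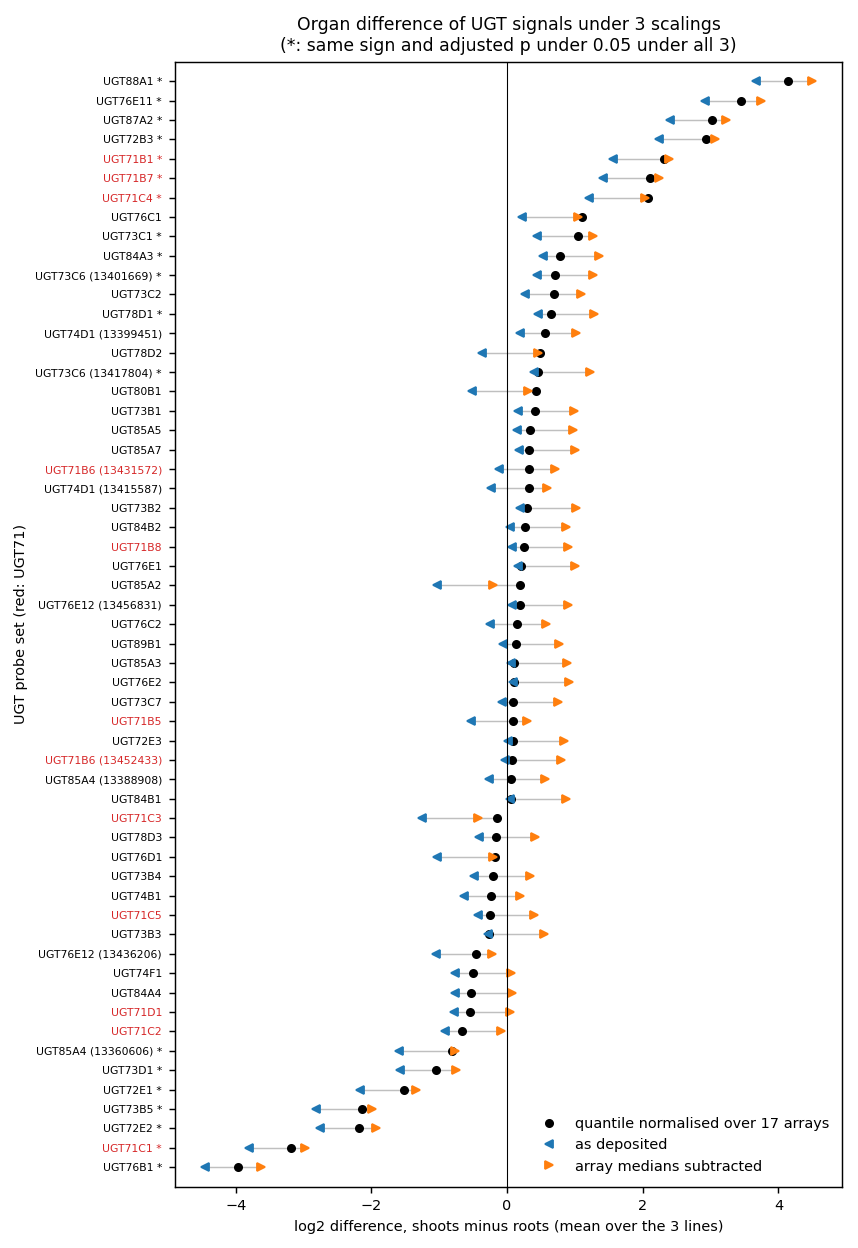
Log2 difference of UGT signals, shoots minus roots averaged over the 3 lines (horizontal axis), for the 57 probe sets (vertical axis, UGT71 in red) after quantile normalization (black circles), as deposited (blue) and after subtraction of array medians (orange). Asterisks mark the 12 probe sets higher in shoots and the 7 higher in roots under the 3 scalings.

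In 7 of the 12 runs exactly 1 gene differed between organs under the 3 scalings, in 5 runs none did, and no run had 2 or more. UGT71C1 was at -3.19 and its neighbour UGT71C2 at -0.66, UGT73B5 at -2.13 and UGT73B4 at -0.22, and UGT73D1 at -1.05 and UGT73C7 at 0.09. On chromosome 1, UGT71C4 was at 2.08 towards shoots between UGT71C5 at -0.25 and UGT71C3 at -0.15. On chromosome 3, UGT71B7 was at 2.11 between UGT71B6 (0.32 and 0.07) and UGT71B8 (0.26). These values are after quantile normalization. UGT71C3 passed towards roots under the other scalings, at -1.25 as deposited and -0.42 after subtraction of medians (adjusted p = 3.54e-08 and 0.00199 from limma). The difference between neighbours was not tested, and as most genes of these runs were dim in every group and most UGTs (38 of 57) were in neither class, the counts do not show that neighbours differ. Among the genes with a pair of probe sets, UGT85A4 showed the organ difference on probe set 13360606 and not on 13388908 (0.06), and UGT76E12 was at -0.46 on 13436206 and 0.18 on 13456831.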

How the data were processed

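The authors deposited RMA log2 signals to 2 decimals for 28583 probe sets, made with Transcriptome Analysis Console and TAIR10 per the labels; versions and background settings are not given in the sources used here. Tests covered 18107 probe sets, 17504 with a symbol from the platform table and 603 named only through the study's supplement. The supplement's names were taken from its lists of genes changed in an NBR1 overexpression line. These 603 were thus chosen for a difference in that line, and the shares given for all probe sets tested include them. Within each organ, limma 3.58.1 (lmFit and eBayes, R 4.3.3) contrasted the KO lines with WT in a fit of all 3 lines, with Benjamini-Hochberg adjustment over all probe sets tested. Interactions and organ differences were fitted on all 17 arrays. The KO1 contrasts within each organ were also tried on simulated data with independent noise. That simulation held no aberrant array, no shift of whole arrays and no pairing, so it cannot show how these affect the results. Tables and figures used Python 3.11.15, pandas 2.3.3, NumPy 2.4.6 and matplotlib 3.10.9. The members and lists were chosen with earlier results of these data known. Named were all UGT71 probe sets, UGTs past the adjusted threshold, up to 5 each way per comparison past the study's thresholds without overlap of arrays, the 10 largest organ differences each way, and UGTs listed by role; UGT85A2, UGT72E3 and the other UGTs named for a count or a spread were chosen after their values were seen. Replicates are independent biological samples per the methods. The methods also state that each plant was split into its shoot and its root, so shoot and root arrays may share plants. The main fits on all 17 arrays took the arrays as independent. With line and replicate number as a random block, the KO1 effect on UGT71B7 in shoots minus roots passed (adjusted p = 0.04955 from limma). Residuals of same-numbered arrays correlated by -0.14 to 0.28 in shoots and -0.05 to 0.21 in roots, and for KO1 with KO3 in shoots by 0.14 to 0.28, so these lines were also compared as pairs. The number of arrays limits the precision. Gene order and overlaps came from the TAIR10.1 reference table, used for names and neighbours only, and no sequences were used here.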

Additional observations from a re-analysis of the deposited data

How the results depend on the processing

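The adjusted call of UGT71B7 in KO1 shoots held when each array was left out in turn (a count of 1 each time). The count of UGT calls in KO1 shoots was 2 after quantile normalization (0.895% of all probe sets called), 3 with all 17 arrays in 1 fit (2.40% of all, against 0.309% as reported), and 0 both with an unmoderated linear model and with only the groups compared (UGT71B7 at -1.84, adjusted p = 0.0894 and 0.0678). With all 17 arrays UGT71C4 (-1.84) and UGT71B1 (-0.72) passed. For the organ difference of the KO1 effect the count was 1, UGT71B7, with quantile normalization, array weights, a random block of line and number, or trend and robust options, and 0 to 1 with an array left out (1 without KO1 roots replicate 3 or WT shoots replicate 2). The other KO comparisons gave 0 calls under every alternative run. A replicate block gave 1 call in KO1 shoots (UGT71B7, adjusted p = 0.0292 from limma), 0 in the other comparisons of lines and 37 between organs, and KO1 with KO3 shoots alone in pairs, an alternative chosen after the data were seen, gave 0. Organ calls numbered 31 to 37 with an array left out. After subtraction of medians UGT71D1 turned to 0.0456 and UGT84A4 to 0.065. UGT71C2 (-0.08) then lost its call, as UGT76C1 (0.22) did as deposited. Without dim probe sets (36 UGTs left in roots) the difference of UGT71 from the other subfamilies was -0.13 in KO1 roots and -0.28 in KO3 roots. With an array left out it was -0.15 to -0.03 in KO1 shoots, -0.27 to -0.14 in KO3 shoots, -0.06 to 0.11 in KO1 roots and -0.18 to -0.05 in KO3 roots. At the study's thresholds, KO1 shoots had 6 lower without KO1 shoots replicate 2 (10.5%, against 10.8% of all) and 0 higher without KO1 shoots replicate 2 or 3, KO3 shoots replicate 3 or WT shoots replicate 1 or 2. In the fits with 0 higher, 67 to 144 of all 18107 probe sets were higher in KO1 shoots. KO3 shoots had 2 lower without KO1 shoots replicate 1, KO3 shoots replicate 1 or WT shoots replicate 2, against 1.52% to 1.99% of all, and 0 higher without KO3 shoots replicate 2 (0.939% of all). KO1 roots had 4 higher without WT roots replicate 3 (4.52% of all), and KO3 roots had 2 lower without it (5.22% of all) and 3 higher without KO3 roots replicate 3 (2.43% of all). The cause of these changes was not tested. Dim signals limit what could be detected for most UGTs.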
